A study of Mus musculus with 15 samples.

Results

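The genes described here are the conjugation enzymes of mouse liver and heart, namely the UDP-glucuronosyltransferases (Ugt), the glutathione S-transferases (Gst) and the sulfotransferases (Sult). They were taken by name, as every gene on the array whose symbol began with Ugt, Gst or Sult. This gave 50 of 32301 genes, of which 15 were Ugt, 21 Gst and 14 Sult genes, read by 63 probes. Each gene was read from its brightest probe by mean signal over all arrays. A further 19 genes of the same names in the RefSeq table, among them Ugt1a6a, Gstk1, Sult2a1 and Sult3a1, had no matched probe and were not analysed here.

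Gene expression was measured on 15 single-colour Agilent arrays, 3 in each of 5 groups, of transplanted livers and hearts of male mice and of their controls. Liver allografts came from B10.BR (BR) donors, were placed orthotopically in B10.D2 (D2) recipients, and were taken on postoperative day (POD) 5 or POD8. Heart allografts came from C57BL/10 (B10) donors, were placed heterotopically in the abdomen of CBA recipients, and were taken at POD5. The controls of each organ are described as normal tissue in the labels and as isografts elsewhere in the study, with no strain given in the sources used here.

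Conjugation is the second phase of the handling of drugs, hormones and waste products, in which an enzyme attaches a polar group so that the product can leave in bile or urine. Ugt enzymes sit in the endoplasmic reticulum and transfer glucuronic acid, for example to bilirubin, bile acids, steroids and many drugs. Gst enzymes add glutathione to electrophiles and products of lipid peroxidation, and Sult enzymes transfer sulfate to phenols, steroids, thyroid hormones and bile acids. The hepatocyte carries most of this activity in the body, and the heart has a smaller set, mainly glutathione S-transferases.

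All values below are log2 of the processed spot intensity after quantile normalization of the arrays of 1 organ, and differences are differences of group means on that scale, so that a log2 difference of 1.11 stands for a 2.16-fold change. A gene was called when its adjusted P-value in limma was under 0.05, with Benjamini-Hochberg adjustment over all probes. The 75th percentile of the unnormalized signal ranged from 92.1 to 226 on liver control arrays, 338 to 478 at POD5 and 384 to 454 at POD8, and from 1021 to 1247 on heart control and 394 to 711 on heart allograft arrays. The scanner software marked 52.5% to 70.5% of the probes of an array as well above background. T cell markers rose in both organs (6 of 7 in liver at either time, 7 of 7 in heart), with a summed log2 level of 8.30 to 8.56 in liver controls, 12.41 to 13.17 at POD5 and 12.21 to 12.56 at POD8. None of 15 hepatocyte markers was called in liver, and their summed level was 20.10 to 20.24 in controls, 20.13 to 20.18 at POD5 and 20.11 to 20.19 at POD8. This sum is carried by the brightest probes, such as Alb at 17.84 to 18.05, which quantile normalization holds to a few shared values. Relative to the 75th percentile of each array, the median of these markers was lower in liver allografts. Scaling to the 75th percentile gave Gsta1 differences of 1.68 at POD5 and 0.93 at POD8, and scaling to these markers 2.58 and 1.83. In these bulk samples, fewer cells of a type and less RNA per cell cannot be told apart. Slide 1 held 2 liver controls and 2 POD8 livers, and no slide held both liver controls and POD5 livers, so that no comparison within a slide was possible at POD5. The heart controls filled slide 6 and the heart allografts lay on slide 5 with 1 POD5 liver, so that effects of slide and group in heart cannot be told apart.

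Of the 50 conjugation enzymes, 42 lay well above background on every liver array and 28 on every heart array, and 27 did so on all 15. In control tissue, 37 were higher in liver than in heart and 3 were lower, against 27.3% and 26.0% of all genes, with a median log2 difference of 4.43 over the 44 measured members and -0.14 over all measured genes. All 15 Ugt genes were among the 37, although Ugt8a was well above background on no control array of either organ. For 9 of them, no heart array reached well above background while every liver array did, namely Ugt1a1, Ugt1a9, Ugt2a1, Ugt2a3, Ugt2b1, Ugt2b36, Ugt2b38, Ugt2b5 and Ugt3a1. Ugt2b36, one of the steroid- and drug-handling Ugt2b enzymes, was at least 5120-fold higher in control liver than in control heart (limma, adjusted P = 1.18e-14), and Ugt1a9 at least 9.69-fold higher (adjusted P = 8.07e-08). These are lower bounds, taken against the dimmest probe well above background on each heart array. Organ, strain and slide differed together in this comparison and cannot be told apart.

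**Figure D1:**
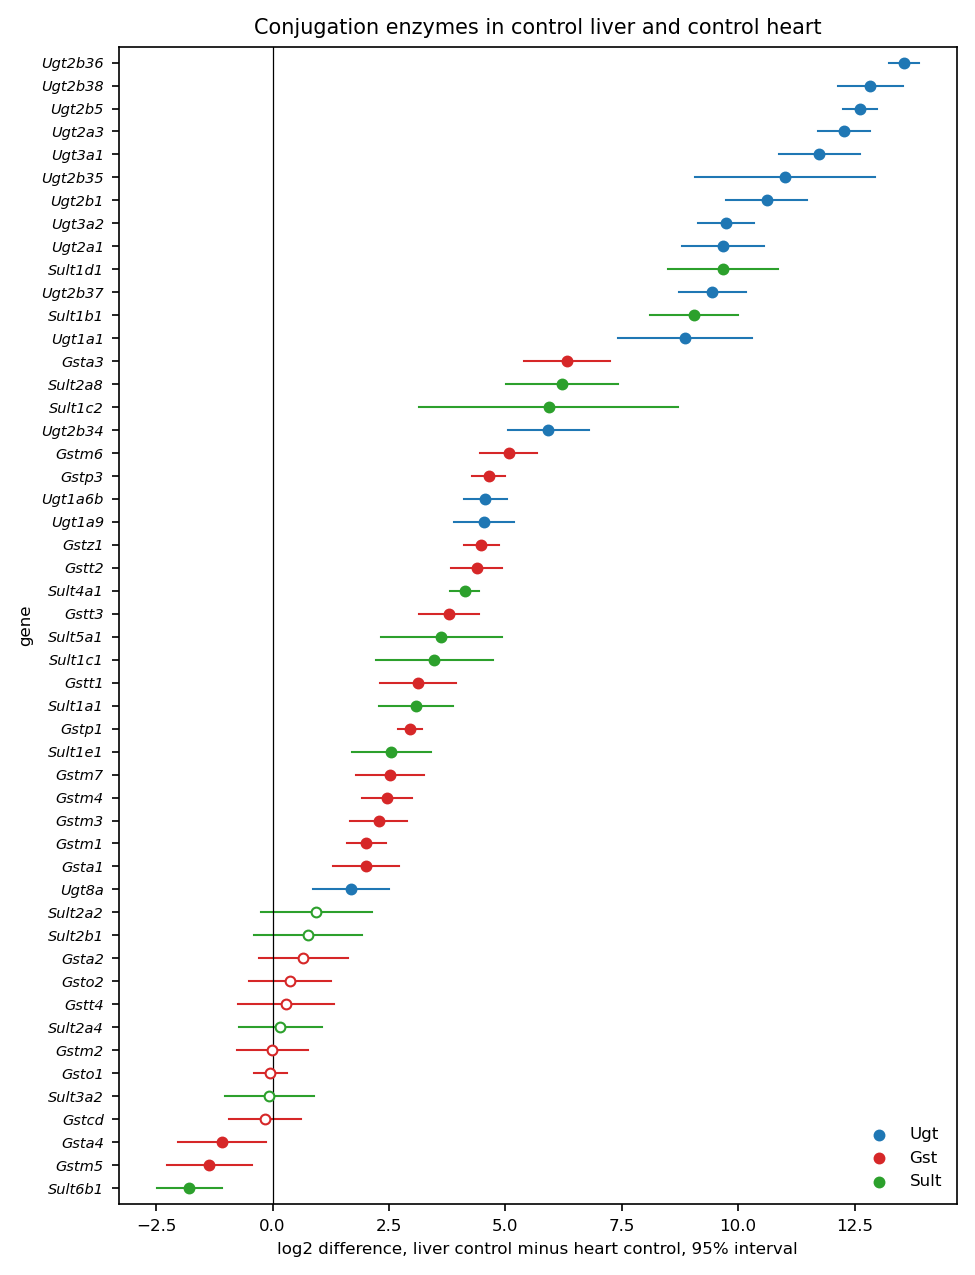
Log2 difference between control liver and control heart (x axis, quantile normalization of 15 arrays) for each of the 50 genes (y axis, ordered by the difference), with the 95% interval from limma and n = 3 arrays per group. Filled points were called. The Ugt genes lie to the right, between 1.69 and 13.57, and the 3 called genes on the left are Sult6b1, Gstm5 and Gsta4.

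Of the 21 Gst genes, 13 were higher and 2 lower in liver, and of the 14 Sult genes, 9 were higher and 1 was lower. The omega class gene Gsto1, which also reduces dehydroascorbate, differed by -0.05 between liver and heart (95% interval -0.41 to 0.30), and the mu class gene Gstm2 by -0.009 (95% interval -0.77 to 0.76). Gstm5 was 2.56-fold lower in liver (adjusted P = 0.0167) and Gsta4, which acts on the lipid peroxidation product 4-hydroxynonenal, was 2.13-fold lower. With the slide as a random block 37 members stayed higher, but neither of these 2 kept the call (adjusted P = 0.0637 for Gstm5 and 0.141 for Gsta4), and Gsta4 also lost it without any 1 of the 6 control arrays (up to 0.121). Gsta3, an alpha class enzyme, was 80.0-fold higher in liver. Among the sulfotransferases, Sult1b1, which sulfates thyroid hormones, and Sult1d1, which sulfates catecholamines, were also called higher in liver (log2 difference 9.05 and 9.67). No fold is given for them, because in the heart controls both were well above background on 1 array only, control array 3, which also read Sult1c2 at 8.70 against 1.94 and 2.42 on the other controls. The same array read the pancreatic lipase gene Pnlip at 9.52 against 2.90 and 3.89. Of 15 hepatocyte markers, 5 (albumin among them) were well above background on no heart control array, and the others included Ahsg at 12.78, 10.05 and 13.33 and Cyp2e1 at 10.24, 1.38 and 7.26. The summed level of the 15 was 12.30 to 13.90 in heart controls and 11.29 to 11.65 in heart allografts. The part of other tissue in that array was not tested.

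At POD5 in liver, 8 of 50 conjugation enzymes were higher and 2 were lower than in controls, against 5.78% higher and 4.21% lower of all genes. By family these were 5 higher of 21 Gst genes, 2 higher and 1 lower of 15 Ugt genes, and 1 higher and 1 lower of 14 Sult genes. At POD8, 3 were higher and 1 was lower, against 4.97% and 2.96% of all genes. The median log2 difference was 0.25 over the 45 members measured at POD5 and 0.18 over the 45 measured at POD8, beside -0.06 and -0.10 over all measured genes. The groups did not overlap for 18 members at POD5 (31.9% of all genes) and for 12 at POD8 (31.7%). Both times were compared with the same 3 controls. After scaling to the 75th percentile in place of quantile normalization, 6 were higher and 7 lower at POD5, and 3 were higher and 6 lower at POD8, while the median of all genes moved to -0.15 and -0.24. Of the 32282 genes tested, that scaling called 2045 higher and 7195 lower at POD5, and 1894 higher and 9448 lower at POD8.

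**Figure D2:**
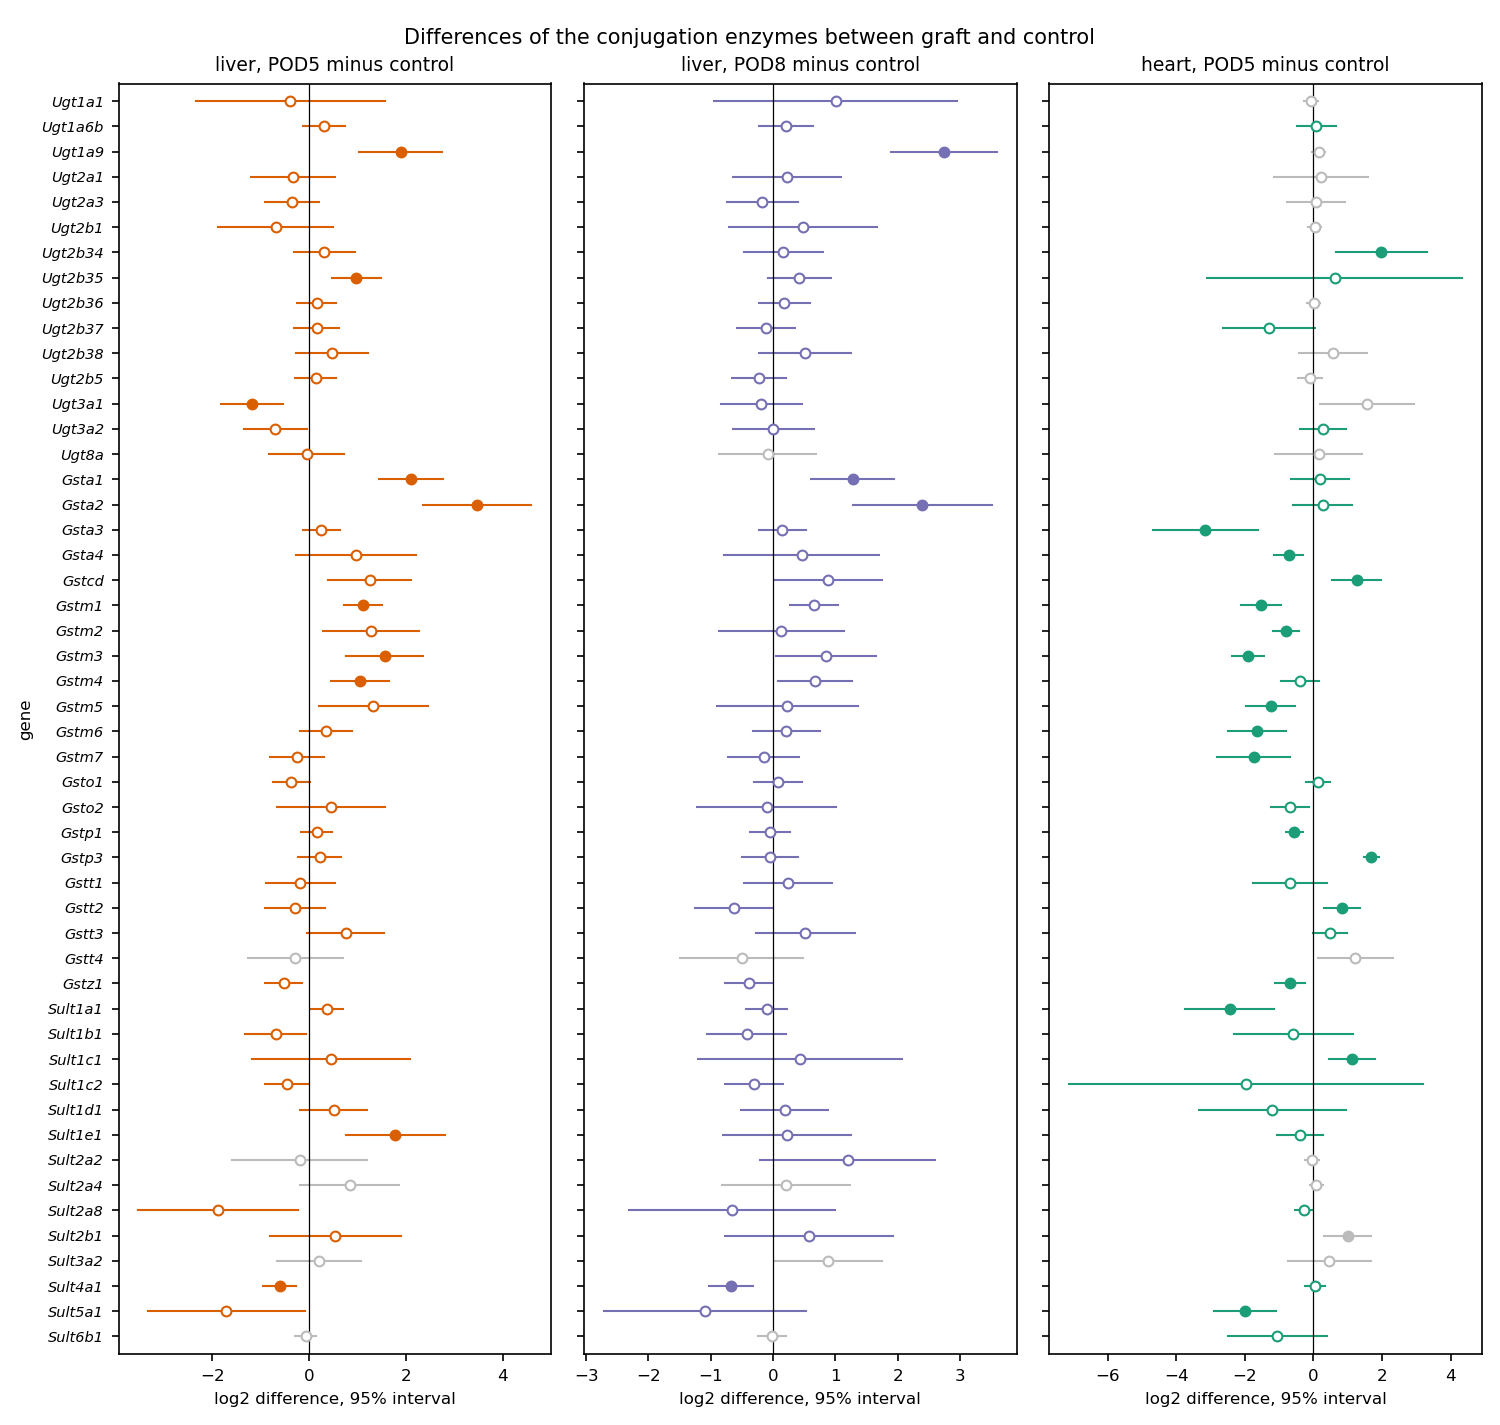
Log2 difference from the control of the same organ (x axes, which differ between panels) for the 50 genes (y axis), with 95% intervals from limma and n = 3 arrays per group. Filled points were called and grey ones were not well above background on any array compared. In liver, Gsta1, Gsta2 and Ugt1a9 lie to the right at both times, and in heart the Gsta3 point at -3.15 and 6 of 7 Gstm points lie to the left.

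The alpha class of glutathione S-transferases held the largest rise. Gsta2, which conjugates electrophiles and reduces lipid hydroperoxides, read 10.59, 9.74 and 9.73 on the 3 control livers, 14.15, 13.22 and 13.11 at POD5, and 11.48, 12.70 and 13.07 at POD8. Every allograft array lay above every control array, and the POD8 arrays spread widely, with an SD of 0.83. The increase over control was 11.1-fold at POD5 (log2 difference 3.47, SE 0.48, adjusted P = 0.00584) and 5.26-fold at POD8 (2.40, SE 0.48, adjusted P = 0.0255). Gsta1, a close copy from the same gene cluster on chromosome 9, read 12.41, 12.82 and 12.89 in controls, 15.30, 14.77 and 14.35 at POD5, and 13.58, 14.10 and 14.27 at POD8. Neither allograft group of Gsta1 overlapped with the controls. Gsta1 rose 4.29-fold at POD5 (2.10, SE 0.29, adjusted P = 0.00554) and 2.42-fold at POD8 (1.27, SE 0.29, adjusted P = 0.0382). The probe sequences were not analysed here, so how far the probes of these 2 genes read each other's transcripts was not tested. The other alpha class genes were not called in liver. Gsta3 was bright throughout, between 15.81 and 16.54 on all 9 liver arrays, and Gsta4 spread from 9.29 to 11.41 at POD5 against 9.06 to 9.43 in controls (0.96, adjusted P = 0.297).

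The stretches of 250 bases before the start sites of Gsta1 and Gsta2 are shown because these genes rose together. They are from RefSeq, build GRCm38.p6, 5′ to 3′, with matches to the searched motifs in capitals.
Gsta1 (chr9:78230419-78230668, + strand): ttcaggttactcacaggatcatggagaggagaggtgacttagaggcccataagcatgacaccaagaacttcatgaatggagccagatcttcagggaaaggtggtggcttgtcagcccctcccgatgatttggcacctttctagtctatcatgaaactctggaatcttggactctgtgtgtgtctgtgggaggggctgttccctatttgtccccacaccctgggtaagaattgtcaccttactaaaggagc
Gsta2 (chr9:78347146-78347395, - strand): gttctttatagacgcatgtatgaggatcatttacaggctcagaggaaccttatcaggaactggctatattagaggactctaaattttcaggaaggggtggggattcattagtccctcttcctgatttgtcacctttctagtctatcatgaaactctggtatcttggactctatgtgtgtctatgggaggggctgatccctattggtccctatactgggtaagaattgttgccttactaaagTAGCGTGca
The 2 stretches were identical at 190 of 266 aligned positions (71.4%). The capitals mark the core TNGCGTG of the xenobiotic response element, the binding site of the Ahr and Arnt pair, which begins at position -9 from the start of Gsta2 and has no match in the Gsta1 window. In windows from 250 bases before to 50 after the start, searched on both strands, this core was found for 3 of the 44 members with a promoter (Gsta2, Gstcd and Sult1d1) and for 5.84% of all genes. The antioxidant response element core TGACNNNGC, to which Nfe2l2 binds, was found for 3 members (Gsta3, Gstm5 and Gstm7) and for 14.0% of all genes. Gsta1 and Gsta2 have no such match in these windows.

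The mu class genes form a cluster on chromosome 3, and 3 of the 7 rose at POD5. Gstm1, one of the most abundant glutathione S-transferases of liver, read 16.98, 17.01 and 16.68 in controls, 18.09, 18.02 and 17.90 at POD5, and 17.33, 17.46 and 17.84 at POD8. The allograft groups of Gstm1 did not overlap with the controls. The SD was 0.095 at POD5, at a brightness where quantile normalization holds probes to a few shared values. The increase was 2.16-fold at POD5 (1.11, SE 0.17, adjusted P = 0.00767), and the difference at POD8 was 0.65 (adjusted P = 0.0563). With scaling to the 75th percentile the Gstm1 differences became 0.02 (adjusted P = 0.967) and -0.35 (adjusted P = 0.406). With scaling to hepatocyte markers they were 0.93 (adjusted P = 0.0911) and 0.55 (adjusted P = 0.331), so the POD5 call was lost under both. A second probe of Gstm1 differed by 1.26 at POD5 without being called (adjusted P = 0.0787). Gstm3 read 15.87, 15.58 and 15.05 in controls and 17.46, 17.16 and 16.54 at POD5, which did not overlap, and then 16.04, 16.10 and 16.89 at POD8. It rose 2.94-fold at POD5 (1.56, SE 0.34, adjusted P = 0.0307), against 0.76 with scaling to the 75th percentile, which was not called (adjusted P = 0.11). Gstm4 read 9.90, 10.18 and 9.91 in controls and 11.04, 11.55 and 10.54 at POD5, again without overlap, and rose 2.07-fold (1.05, SE 0.26, adjusted P = 0.0432).

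The other mu class genes were not called in liver. Gstm2 and Gstm5 had log2 differences of 1.28 (adjusted P = 0.111) and 1.33 (adjusted P = 0.136) at POD5, with groups that did not overlap. Gstm6 and Gstm7 differed by less, and the lowest value of the class was -0.25 for Gstm7. At POD8 no mu class gene was called, and their differences ranged from -0.15 to 0.85. Mu class genes are close copies of each other, and cross-reading between their probes was not tested.

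**Figure D3:**
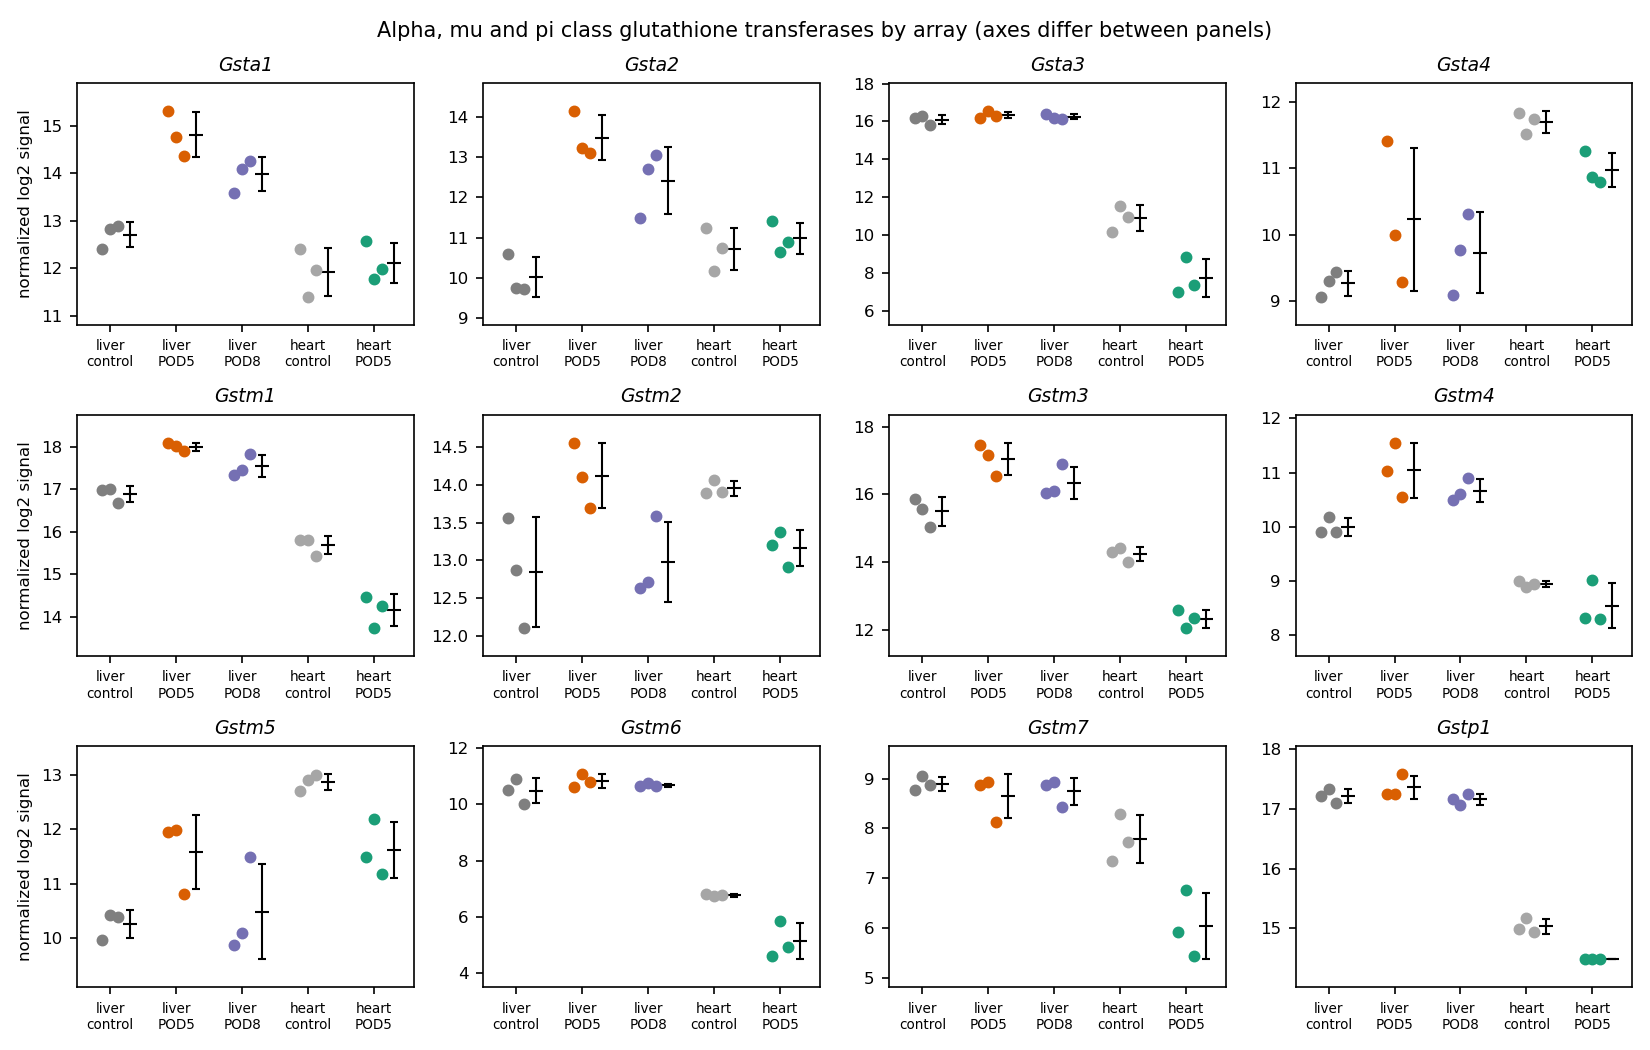
Normalized log2 signal (y axes, which differ between panels) of the alpha and mu class genes and Gstp1 on each of 15 arrays, with the mean and SD of each group of 3 beside its points. Liver and heart arrays were normalized separately. Gsta2 rises from 9.73 to 10.59 in control liver to 13.11 to 14.15 at POD5, and Gstm3 falls from 14.01 to 14.43 in control heart to 12.05 to 12.58 at POD5.

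No gene of the remaining Gst classes was called in liver. Gstp1, a pi class enzyme that is abundant in the liver of male mice, read 17.09 to 17.33 in controls, 17.26 to 17.59 at POD5 and 17.07 to 17.26 at POD8. With scaling to the 75th percentile, however, Gstp1 was called lower at POD5 (-0.96, adjusted P = 0.0488). Gstp3 of the same class differed by 0.22 at POD5 and -0.05 at POD8. The theta class genes Gstt1, Gstt2 and Gstt3 had differences between -0.29 and 0.75 at POD5, and Gstt4 was not well above background on any array of either organ. The omega class genes Gsto1 and Gsto2 lay at -0.37 and 0.45 at POD5. Gstz1, an enzyme of tyrosine breakdown, read 13.51, 13.59 and 13.74 in controls and 13.21, 13.28 and 12.75 at POD5, which did not overlap, but it did not pass the test (-0.53, adjusted P = 0.0852). Gstcd, which carries only a glutathione S-transferase-like C-terminal domain, was not well above background on any control array and was above it on every allograft array, at least 1.42-fold higher at POD5 without passing the test (adjusted P = 0.0794).

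Among the glucuronosyltransferases, Ugt1a9 stood alone in rising at both times. It read 5.20, 5.26 and 5.11 in controls, 7.04, 7.80 and 6.38 at POD5, and 7.45, 8.34 and 7.98 at POD8. All 6 allograft livers lay at least 1 log2 unit above the brightest control. The increase was 3.70-fold at POD5 (1.89, SE 0.37, adjusted P = 0.0197) and 6.67-fold at POD8 (2.74, SE 0.37, adjusted P = 0.0059). Ugt1a1, the enzyme that conjugates bilirubin, read 8.83, 9.38 and 10.61 in controls, 10.16, 10.29 and 7.20 at POD5, and 10.51, 10.79 and 10.51 at POD8. The POD5 array 3 lay below all other liver arrays for Ugt1a1, the groups overlapped, and no difference was called (95% interval -2.34 to 1.56 at POD5 and -0.95 to 2.95 at POD8). Ugt1a6b, which acts on planar phenols, read 14.98 to 15.42 in controls and 15.14 to 15.73 in the allografts of both times. The Ugt1a genes share their last exons and differ in the first, so a probe in the shared part would read them all, and where the probes lie was not analysed here.

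The Ugt2 genes showed few differences. Ugt2b35 read 12.45, 12.79 and 12.54 in controls and 13.46, 13.73 and 13.50 at POD5, which did not overlap, and rose 1.96-fold (0.97, SE 0.22, adjusted P = 0.0319), while at POD8 it read 12.88, 12.69 and 13.47. With scaling to the 75th percentile its POD5 difference was 0.60 and not called (adjusted P = 0.106). Ugt2b5 and Ugt2b36, both bright in liver, differed by 0.14 and 0.16 at POD5 and by -0.23 and 0.18 at POD8. Ugt2b1 read 9.26 on POD5 array 1 and 11.44 and 10.89 on the others, against 10.91 to 11.55 in controls. The remaining Ugt2 genes Ugt2a1, Ugt2a3, Ugt2b34, Ugt2b37 and Ugt2b38 were not called at either time. Ugt2a1 was read by 3 probes, of which the dimmest was called lower at POD8 (-1.72, adjusted P = 0.0161) and the other 2 differed by 0.22 and 0.18.

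The Ugt3a enzymes use other sugars than glucuronic acid, and Ugt3a1 was the only Ugt gene called lower in liver. It read 12.30, 12.80 and 12.96 in controls, 11.13, 12.02 and 11.36 at POD5, and 12.66, 12.62 and 12.20 at POD8. The POD5 arrays lay below every control and every POD8 array. The decrease was 2.27-fold at POD5 (-1.18, SE 0.28, adjusted P = 0.0381; with scaling to hepatocyte markers -0.59, adjusted P = 0.216), and the difference at POD8 was -0.19 (95% interval -0.84 to 0.46). Ugt3a2 differed by -0.70 and 0.003. Ugt8a, which makes galactosylceramide and belongs to myelin rather than liver, was above background on 1 liver array only.

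Among the sulfotransferases, 1 gene rose and 1 fell in liver. Sult1e1, the oestrogen sulfotransferase, read 5.10, 5.64 and 4.98 in controls, 7.68, 5.99 and 7.36 at POD5, and 5.84, 5.39 and 5.15 at POD8. At POD5 all 3 arrays exceeded the controls, 1 of them by little, whereas the POD8 arrays overlapped with them. The rise at POD5 was 3.42-fold (1.77, SE 0.44, adjusted P = 0.0453), and the POD8 difference was 0.23 (95% interval -0.80 to 1.25). Sult4a1, a brain form with little known activity, read 8.38, 8.34 and 8.41 in controls, 7.65, 7.78 and 7.86 at POD5, and 7.55, 7.55 and 8.002 at POD8, without overlap. It fell 1.53-fold at POD5 (-0.61, SE 0.15, adjusted P = 0.0429) and 1.60-fold at POD8 (-0.68, SE 0.15, adjusted P = 0.0359). Its other probe was not well above background on any array, and with scaling to the hepatocyte markers the differences turned to 0.29 and 0.21, neither called.

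**Figure D4:**
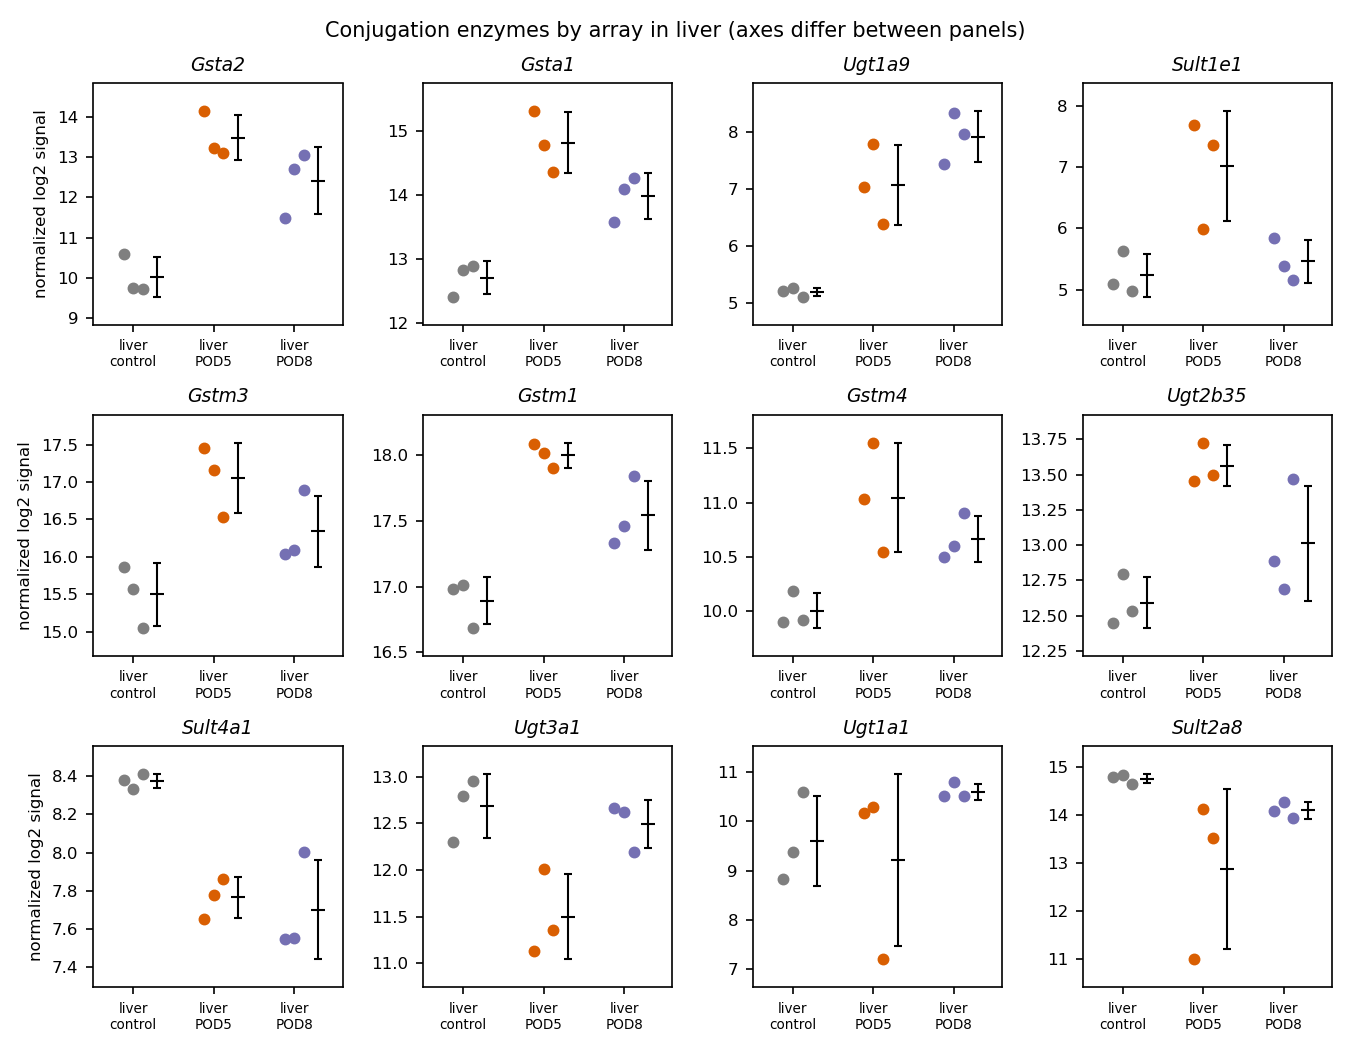
Normalized log2 signal (y axes, which differ between panels) on each liver array for the 10 genes called in liver and for Ugt1a1 and Sult2a8, with the mean and SD of each group of 3 beside its points. The POD5 arrays of Gsta1, Gsta2 and Ugt1a9 all lie above the controls, and 1 POD5 array of Ugt1a1 and of Sult2a8 lies far below the other 2.

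Sult2a8, a liver sulfotransferase of bile acids, showed how much 1 graft could differ. It read 14.80, 14.84 and 14.66 in controls, 10.998, 14.13 and 13.53 at POD5, and 14.09, 14.29 and 13.94 at POD8. All 6 allograft values lay under the controls, POD5 array 1 by far, and neither difference was called (-1.88, adjusted P = 0.144 at POD5). The same array was lowest for Sult5a1, at 6.52 against 9.01 and 8.83 on the other POD5 arrays and 8.90 to 10.52 in controls. Sult1a1, the main phenol sulfotransferase, read 13.83 to 14.10 in controls and 14.21 to 14.45 at POD5, which did not overlap, without passing the test (0.37, adjusted P = 0.144). Sult1c1, Sult1c2, Sult1d1 and Sult1b1 were not called on their brightest probes. Sult1b1 had a second, dimmer probe that was called lower at POD5 (-1.51, adjusted P = 0.0122) and POD8 (-1.08, adjusted P = 0.0463), beside -0.69 and -0.42 on the brightest one. Sult2a4 and Sult3a2 were not well above background on any array, Sult6b1 on no liver array, and Sult2a2 and Sult2b1 on few.

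No conjugation enzyme was called between POD8 and POD5 by limma, where 0.00929% of all genes were called. Of the 50, 9 had an unadjusted limma P-value under 0.05, and the share of all genes under it was not taken. The study's own statistic, SFC, with Bonferroni adjustment called 4 members and 204 of all genes. The lowest limma P-values of members belonged to Ugt3a1 (0.99, 95% interval 0.34 to 1.64) and Sult1e1 (-1.55, 95% interval -2.57 to -0.53), both with adjusted P-values near 0.49 (0.487 and 0.493). The median log2 difference was -0.11 over the 46 measured members and -0.02 over all measured genes.

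The liver calls differed in how far they depended on single arrays and on slides. At POD5, Gsta1, Gsta2 and Gstm1 were called without any 1 of the 6 arrays and with the slide as a random block (adjusted P = 0.0199, 0.0274 and 0.0253). Ugt1a9 was called without each array but POD5 array 1 (1.91, adjusted P = 0.0656 without it), and its adjusted P-value was 0.0658 with the slide as a block. Gstm3 was called when control 1 or POD5 array 3 was left out and not otherwise (up to 0.103), and Ugt3a1 when control 1 or POD5 array 2 was (otherwise up to 0.12). Gstm4, Sult1e1 and Ugt2b35 kept the call in 1 fit each, without POD5 array 3, POD5 array 2 and control 2, with adjusted P-values up to 0.118, 0.132 and 0.0932 in the others, and Sult4a1 in none (0.0643 to 0.13). At POD8, Ugt1a9 was called in all 6 such fits, Gsta2 in 2 (without control 1 or POD8 array 1, otherwise up to 0.102), Sult4a1 in 1 (without POD8 array 3, otherwise up to 0.139) and Gsta1 in none (0.0519 to 0.139). Slide 1 held 2 controls and 2 POD8 livers. Within it the log2 differences were 2.67 for Ugt1a9, 1.92 for Gsta2, 1.23 for Gsta1 and -0.81 for Sult4a1, and the median over members was 0.17. With 2 arrays against 2, no gene of the whole array passed the test there.

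In the heart at POD5, 6 of the 50 conjugation enzymes were higher and 12 were lower than in controls, against 15.2% and 15.1% of all genes. The glutathione S-transferases made up 10 of the 12 that fell, out of 21 Gst genes, and 6 of these were mu class genes. The median log2 difference was -0.58 over the 35 measured members and -0.04 over all measured genes, and the groups of 28 members did not overlap (54.1% of all genes). With scaling to the 75th percentile, 19 were higher and 10 lower, against 13112 higher and 4098 lower of the 32172 genes tested. The median of all genes was then 0.11, and all 13 of the added higher calls among members were of genes well above background on no heart array. Markers of other cells moved with these groups. Of the 6 bile duct cell markers, which include keratins of the heart's mesothelial covering, 5 were lower (summed level 15.91 to 16.55 in controls and 14.02 to 14.34 in allografts). Lower too were 4 of 7 cardiomyocyte, 3 of 4 endothelial and 3 of 5 fibroblast markers, against 15.1% of all genes. The other endothelial marker, Stab2, was called higher, at 6.52 to 6.55 in controls and 7.33 to 8.185 in allografts. T cell markers summed to 9.68 to 10.24 in controls and 14.28 to 14.90 in allografts. The part of these cells in the results was not tested.

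Gsta3 had the largest decrease. It read 10.17, 11.52 and 10.98 in control hearts and 6.98, 8.87 and 7.38 in allografts, with a gap between the groups, and fell 8.86-fold (-3.15, SE 0.61, adjusted P = 0.0163). The fat cell gene Adipoq, chosen after its values were seen, read 12.27, 3.001 and 8.38 on the same controls and 9.85 to 10.46 on the allografts, and its part in the result was not tested. Gsta4 fell 1.65-fold (-0.72, adjusted P = 0.0282). Gsta1 and Gsta2, which rose in liver, read 11.40 to 12.40 and 10.18 to 11.23 in control hearts and 11.76 to 12.57 and 10.64 to 11.40 in allografts, and these groups overlapped.

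The mu class fell nearly as a whole. Gstm3 read 14.30, 14.43 and 14.01 in control hearts and 12.58, 12.05 and 12.35 in allografts and fell 3.78-fold (-1.92, SE 0.19, adjusted P = 0.00245). Gstm1 read 15.81, 15.80 and 15.44 in controls and 14.48, 13.74 and 14.26 in allografts and fell 2.88-fold (-1.53, SE 0.23, adjusted P = 0.00781). Gstm7, Gstm6, Gstm5 and Gstm2 fell 3.35-fold, 3.11-fold, 2.37-fold and 1.73-fold (adjusted P = 0.0304, 0.019, 0.0249 and 0.0146), in each case without overlap. Gstm4 was the exception, with 8.88 to 8.99 in controls and 8.30, 8.31 and 9.02 in allografts (-0.40, not called). Under the 75th percentile scaling all 7 mu class differences kept their negative sign, from -0.37 to -1.93, although Gstm2 lost its call (adjusted P = 0.06).

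In the pi and theta classes single genes moved apart. Gstp1 fell 1.46-fold (-0.55, adjusted P = 0.0131), a call lost with scaling to the 75th percentile (adjusted P = 0.166), and Gstp3, a close relative from the same cluster, read 4.14, 4.03 and 3.99 in controls and 5.70, 5.73 and 5.78 in allografts. It rose 3.21-fold (1.68, SE 0.09, adjusted P = 0.000744), with the smallest SE of the members called in heart. Among the alternatives the log2 difference of Gstp3 ran from 0.61 to 2.04. Gstt2 rose 1.77-fold and Gstcd 2.40-fold (adjusted P = 0.0358 and 0.0242), while Gstz1 fell 1.61-fold (adjusted P = 0.0344). Of the sulfotransferases, Sult1a1 read 11.65, 12.17 and 12.34 in controls and 8.98, 10.69 and 9.18 in allografts and fell 5.44-fold (-2.44, SE 0.51, adjusted P = 0.0201). Sult5a1 fell 4.02-fold (adjusted P = 0.0127) and Sult1c1 rose 2.19-fold (adjusted P = 0.0273). Sult2b1, which sulfates cholesterol, was called higher at a level not well above background on any heart array. The only Ugt gene called was Ugt2b34, at 5.71, 6.80 and 5.01 in controls and 7.91, 8.27 and 7.30 in allografts, a rise of 3.96-fold (1.99, SE 0.52, adjusted P = 0.0396).

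Leaving out 1 heart array changed the count of called members to between 4, without control 3, and 19, without allograft 2. Over all genes, 5579 were called without control 3 and 12769 without allograft 2, against 9750 in the main fit. Among the members, those called differed in how often they kept the call. Gstm1, Gstm3 and Gstp3 were called in all 6 of these fits. Gstp1 was called in 5, losing the call without allograft 3 (adjusted P = 0.0516), and Gstm2 in 4, losing it without control 2 or 3 (up to 0.0533). Sult5a1 was called in 4 (not without control 1 or 3, up to 0.0521), Gsta3 in 3 (not without control 2 or 3 or allograft 3, up to 0.0613) and Sult1c1 in 3 (not without control 1 or 3 or allograft 1, up to 0.0885). The other 10 were called in 1 or 2, with adjusted P-values up to 0.136, and the log2 difference of Sult1a1 stayed between -2.93 and -2.14. Control 3 was also the array that read Sult1c2 and Pnlip, and its part in these counts was not tested.

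The difference of the POD5 change between the organs was tested as an interaction in 1 fit of all 15 arrays. For 4 members the change in heart lay above that in liver and for 13 below it, against 8.93% and 9.24% of all genes. Of the 13, 10 were glutathione S-transferases, and 6 of these were of the mu class. Gstm1 and Gstm3, which rose in liver and fell in heart, had interaction values of -2.45 (SE 0.27, adjusted P = 0.000277) and -3.38 (SE 0.39, adjusted P = 0.000359). Gsta3 (-3.40, adjusted P = 0.00363) and Sult1a1 (-2.86, adjusted P = 0.00383) fell in heart and were not called in liver, and Gsta2 (-3.10, adjusted P = 0.00643) rose in liver and was not called in heart. With scaling to the 75th percentile, 17 lay above and 13 below, against 11645 and 2458 of the 32153 genes tested, and the median of all genes was 0.33. With the slide as a random block 2 lay above and 10 below, against 1799 and 1996 of all genes. Gsta1, Gstm4, Gstt2, Ugt1a9 and Sult4a1 then lost the call (adjusted P = 0.0693, 0.07, 0.078, 0.058 and 0.0801). Strain, organ and slide differ together between the arms of this comparison and cannot be told apart.

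Other genes of these pathways were read beside the members. Of 54 genes tested for cofactor supply, other conjugation, deconjugation and regulation, 3 were higher and 4 lower in liver at POD5 (5.56% and 7.41%, against 5.78% and 4.21% of all genes). At POD8, 1 was higher and 3 were lower (1.85% and 5.56%, against 4.97% and 2.96%), and in heart 2 of 53 were higher and 9 lower (3.77% and 17.0%, against 15.2% and 15.1%). Mgst2, a membrane-bound glutathione transferase that can make leukotriene C4, rose in liver at both times (log2 difference 3.31 and 2.83) and in heart (1.53, adjusted P = 0.0379), and was the only one of the set to do so. Ggt1, which cleaves glutathione outside the cell, was at least 1.88-fold higher at POD5 in liver, with no control array well above background (adjusted P = 0.00752). Nfe2l2, the factor that binds the antioxidant response element, rose by 0.67 at POD5 (adjusted P = 0.0418) and differed by 0.14 in heart (adjusted P = 0.52). Nat8, which acetylates the cysteine conjugates that follow from glutathione conjugates, fell by 3.02 at POD5 (adjusted P = 0.00891) and by 2.43 at POD8 (adjusted P = 0.0224). Arsb and the regulator Ppara were also lower at POD5, and Acsm3 and Nr1i3, a nuclear receptor that drives many conjugation enzymes, were lower at POD8. In heart the lower genes were Hpgds, Hnmt, As3mt, Ces1d, Nr1i3 (well above background on no allograft array), Ahr, Arnt, Ppara and Rxra, and Gclm, a subunit of the enzyme that makes the precursor of glutathione, was higher (0.74, adjusted P = 0.0136).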

How the data were processed

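The members and gene lists were chosen with earlier results of these data known. The processed intensity of each spot, as deposited by the authors, is linear and background-subtracted by the scanner software (Feature Extraction 10.5.1.1, protocol GE1_105_Dec08, array grid on mm9), and the arrays had not been normalized against each other. Deposited median intensities of spot and background served for 1 alternative. Outlier spots (47 to 113 per array) were left out, none was saturated, log2 values were averaged per probe, and quantile normalization was done per organ (over all 15 arrays for the comparisons between organs). Groups came from the labels, with 3 arrays each. That these were separate animals is not stated in the labels, and P-values measure the spread between these arrays, which limits the precision. An exact permutation test of 3 arrays against 3 cannot go below 0.10, so limma was used across all probes.

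Limma 3.58.1 (R 4.3.3, with data.table in version 1.17.8) was run with lmFit and eBayes, 2-sided, with Benjamini-Hochberg adjustment over all probes at 0.05, 1 fit for the 3 liver groups, 1 for the heart and 1 for all arrays. Counts over all genes also used the brightest probe of each gene. A probe was taken as well above background on an array where at least 0.5 of its spots were marked so. Medians of log2 differences cover genes well above background on at least 1 array compared, and a bound ("at least") sets the brighter mean against, per array, the higher of the probe's own signal and the lowest signal marked well above background. The script was tested on simulated data.

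Systematic names in the files were matched to transcript accessions of the RefSeq table of GRCm38.p6, used for names and neighbours only. Of 41174 probes, 26690 (64.8%) matched, and 12 members had several probes. All 50 members were named. Those called without overlap, those called for the interaction and a set of well-known enzymes were described in full. Promoter windows (250 bases before to 50 after the start) came from RefSeq for 44 members. The planned comparison of protein sequences was not run. A searched motif and single genes of the pathway lists are not reported here. Python 3.11.15 with numpy 2.4.6, pandas 2.3.3 and matplotlib 3.10.9 was used for tables and figures.

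The alternatives were other sets of arrays for normalization and fit, scaling to the 75th percentile or to hepatocyte markers, normexp (offset 50) on median signals, since mean signals were not used here, a filter on dim probes, outlier spots kept, a trended and robust prior, Bonferroni adjustment, the methods' SFC statistic (bin 1000, constant 0.455) and t-test, any probe of a gene, blocks for replicate number or slide, and leaving out each array.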

Additional observations from a re-analysis of the deposited data

Results flagged for a closer look

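For 17 conjugation enzymes the POD5 change in heart differed from that in liver by the interaction test of limma over all 15 arrays. The differences below are the log2 change in heart minus the log2 change in liver, and adjusted P-values ran from 0.000277 for Gstm1 to 0.0493 for Gstt2. With the slide as a random block 12 were called, and Gsta1, Gstm4, Gstt2, Ugt1a9 and Sult4a1 were not (adjusted P = 0.0693, 0.07, 0.078, 0.058 and 0.0801). Among the alpha class glutathione S-transferases they were -1.85 for Gsta1, -3.10 for Gsta2 and -3.40 for Gsta3. In the mu class they were -2.45 for Gstm1, -2.07 for Gstm2, -3.38 for Gstm3, -1.41 for Gstm4, -2.60 for Gstm5 and -1.91 for Gstm6. In the pi class they were -0.69 for Gstp1 and 1.39 for Gstp3, and the theta class gene Gstt2 had 1.11. With scaling to the 75th percentile Gstp1 turned to 0.47 in limma (adjusted P = 0.359). Gstp3 lost its call with normexp, and its value went down to 0.27 among the alternatives. Among the sulfotransferases Sult1a1 had -2.86, Sult1e1 -2.16 and Sult4a1 0.65. Among the glucuronosyltransferases Ugt1a9 had -1.75 and Ugt3a1 2.39, and both were well above background on no heart array, so that their change in heart is not a measured one.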

How the results depend on the processing

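With a quantile normalization and fit of the 6 arrays compared, 4 members were called at POD5 in liver and 2 at POD8, against 10 and 4 in the main fit. Over all genes these fits called 1223 and 1793, against 3224 and 2562 in the main fit. With Bonferroni adjustment 0 were called in each comparison against control and 0 for the interaction. Of all genes, 97 were then called at POD5, 88 at POD8, 74 in heart and 151 for the interaction. SFC with Bonferroni adjustment called 1 at POD5, 2 at POD8, 4 between POD8 and POD5, and 0 in heart (309, 334, 204 and 197 of all genes). The methods' t-test called 8 at POD8 and 7 between POD8 and POD5 at its unadjusted threshold (6350 and 3387 of all genes). After Benjamini-Hochberg adjustment it called 0 at POD5, 1 at POD8 and 10 in heart (186, 663 and 7976 of all genes). The slide as a random block left 3 at POD5 (1662 of all genes), and the fit within slide 1 left 0 at POD8 (0 of all genes). Same-numbered arrays did not deviate together (correlations from -0.142 to 0.051). With the replicate number as a block 5 were called at POD5, 1 at POD8 and 11 in heart (2226, 1552 and 6312 of all genes). With scaling to the 75th percentile 9 were called at POD8, 29 in heart and 30 for the interaction (11342, 17210 and 14103 of all genes). That scaling moved the median of members to -0.14 at POD5 (all genes -0.15), -0.076 at POD8 and -0.28 in heart, scaling to hepatocyte markers moved it to 0.77 and 0.83 in liver (all genes 0.76 and 0.66), and normexp moved it to -0.17 in heart. The causes were not tested.

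Leaving out 1 array gave 3 to 7 members called at POD5, 1 to 3 at POD8, 0 between them, 4 to 19 in heart, 14 to 18 for the interaction and 38 to 40 between the organs. Of all genes, 1647 to 4952 were then called at POD5, 935 to 3167 at POD8, 1 to 7 between them and 5579 to 12769 in heart. For the interaction they were 3767 to 7283, and between the organs 14879 to 17154. The medians of members ran from 0.14 to 0.36 at POD5, 0.069 to 0.29 at POD8, -0.20 to -0.01 between them and -0.64 to -0.25 in heart. Among single members, 10 of 5598 alternative values changed direction with a call on 1 side, and 244 did so without any call. Under hepatocyte marker scaling these were Sult4a1 at 0.29 (POD5) and 0.21 (POD8). Under scaling to the 75th percentile they were Gstp1 at -0.96 in liver at POD5, Sult2a2 at 1.495, Ugt2b5 at 1.42 and Ugt1a1 at 1.49 in heart, Ugt2b36 at 1.90, Gstp1 at 0.47 and Ugt2b5 at 1.68 for the interaction, and Sult3a2 at 2.31 between the organs. Sult2a2, Ugt2b5, Ugt1a1, Ugt2b36 and Sult3a2 were well above background on no heart array. Signal over background limits the dim members, 3 of which were on no array.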

Other observations

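Sex-biased liver genes were read beside the conjugation enzymes, since several members of these families differ between male and female mouse liver and all mice here were male. Of 7 male-biased genes measured, 5 fell at POD5 in liver, namely Susd4 (log2 difference -2.41, limma, adjusted P = 0.00497), Cyp7b1, Cyp4a12a, C6 and Cyp2d9, and 1 fell at POD8 (Susd4). Of all genes, 4.21% were called lower at POD5 and 2.96% at POD8. The median of the 7 was -1.62 at POD5 and -0.89 at POD8, beside -0.06 and -0.10 over all measured genes. The median of 7 female-biased genes was 1.05 at POD5, with 1 called higher (5.78% of all genes), and 0.31 at POD8, with 0 called. Of these 7, A1bg and Cux2 were well above background on no liver control or POD5 array. Hsd3b5, a male-biased steroid enzyme, differed by -4.05 at POD5 without passing the test (adjusted P = 0.0523).

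The spread of the members between arrays was largest in livers at POD5. The median SD over members well above background on all 3 arrays of a group was 0.43 at POD5 (43 members), 0.22 at POD8 (43 members) and 0.28 in liver controls (42 members), and 0.39 in heart allografts (28 members) against 0.21 in heart controls (31 members). The same SD over all genes was not taken. Over all probes before normalization, the lowest correlation between arrays was 0.974 at POD5, 0.987 at POD8 and 0.965 in liver controls. In heart it was 0.967 in allografts and 0.989 in controls.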
